A study of Mus musculus with 10 samples.

Results

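Alveolar macrophages take their identity from a small set of transcription factors. Out of 26173 genes in the deposited table, 9 transcription factors of macrophages, not all of them from that set, were followed across all samples: Pparg, Cebpa, Cebpb, Spi1, Bhlhe40, Bhlhe41, Klf4, Maf and Zeb2. They were chosen by name, and the level of each is the sum of the FPKM values (fragments scaled to the length of the transcript and to the depth of the library) of its listed transcripts. RNA was sequenced from 10 samples of mouse alveolar macrophages, the resident phagocytes of the lung's air spaces, with 2 samples in each of 5 groups. All mice were labelled C57BL/6, female and 16 weeks old. From Bach2-floxed CD4cre knockout mice came a population with aberrant surface markers (samples 3 and 8) and a population with normal surface markers (samples 2 and 7), and both were set against the Bach2-floxed CD4cre control (samples 1 and 6). Bach2 germline knockout mice (samples 5 and 10) were set against wild-type mice (samples 4 and 9). Bach2 is a transcriptional repressor that binds DNA together with small Maf proteins. Cre driven by Cd4 acts in T cells, so the macrophages of the conditional line need not have lost Bach2 themselves, and the labels do not say which of the alleles the control mice carried.

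PU.1, encoded by Spi1, opens the enhancers of all macrophages, and C/EBPα (Cebpa) and C/EBPβ (Cebpb) bind many of the same enhancers. In the lung, GM-CSF and TGF-β induce PPARγ (Pparg), a nuclear receptor that pairs with RXR and switches on the lipid handling that alveolar macrophages need to clear surfactant. The related repressors Bhlhe40 and Bhlhe41 sustain self-renewal and identity of these cells in mice, Zeb2 is a zinc finger repressor that maintains macrophage tissue identity in mice, and Klf4 acts in monocyte differentiation. Maf, in contrast, restrains macrophage self-renewal and is kept low in mouse alveolar macrophages.

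The 2 samples of a group agreed nearly within sampling noise, so each pair was counted as 1 library. The correlation of log2 values (Pearson) was 0.993 to 0.998 in the 5 pairs within a group, against 0.685 to 0.853 in the 40 pairs across groups. With 1 library per group no test across mice exists, and no p-value is given: a difference is described by its size, and the gap between the samples of a group measures sequencing rather than mice. Differences are on the log2(FPKM + 1) scale, and a gene was called by a 4-fold rule (group means at least 2 log2 units apart, the same for any pick of 1 sample from each group, and a mean of 20 FPKM or more in the higher group) or, more leniently, by the same rule at 2-fold. Depth was estimated at 7.46 to 9.43 M fragments per sample, which puts 1 fragment on a 2-kilobase transcript at 0.053 to 0.067 FPKM. The Bach2 transcript itself was at 0.0761 FPKM or less in all 10 samples, too near the detection limit to check any genotype. The Y-linked gene Eif2s3y was at 41.1 and 38.7 FPKM in the germline knockout samples and at 58.5 and 63.1 FPKM in the wild-type samples, which goes against their label as female, whereas it was at 0.146 FPKM or less in the 6 samples of the conditional line.

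The cell labels were checked against markers. Of 14 alveolar macrophage markers, 10 were called lower at 4-fold in aberrant-marker than in conditional control macrophages, and 9 lower and 1 higher in germline knockout than in wild type. Marco, a scavenger receptor, had a mean of 0.258 FPKM in aberrant-marker, 168 FPKM in normal-marker, 224 FPKM in conditional control, 13.5 FPKM in germline knockout and 339 FPKM in wild-type samples. Siglec5, the entry under which Siglec-F is listed, was at 0.134, 94.1 and 197 FPKM in the aberrant-marker, normal-marker and conditional control groups, and at 0.0247 FPKM in germline knockout against 151 FPKM in wild type. The aberrant-marker library thus held next to nothing of 2 surface markers that define the labelled cell, and the germline knockout library next to no Siglec5. Other markers of that list were kept. Chil3 was at 8291 FPKM in aberrant-marker against 9166 FPKM in conditional control. It was the 1 called higher in germline knockout, at 46574 FPKM against 9278 FPKM in wild type. Fabp4 and Itgax were called at 4-fold in neither comparison. Transcripts on the lists of other cell types were present as well. The summed level of 12 dendritic cell markers was 5487 to 5538 FPKM in aberrant-marker samples, against 80.4 to 91.6 FPKM in normal-marker, 32.3 to 35.9 FPKM in conditional control, 285 to 290 FPKM in germline knockout and 75.02 to 82.5 FPKM in wild-type samples. Ccl22 (2002 FPKM), Ccr7 (1564 FPKM) and Cd83 (1276 FPKM) made up most of the sum in aberrant-marker samples. Xcr1, Clec9a and Dpp4 were each at 3.00 FPKM or less there. Of 11 T cell markers, 10 were at 1 FPKM or more in the aberrant-marker group, against 2 in normal-marker, 1 in conditional control, 2 in germline knockout and 1 in wild type. Their summed level was 305 to 312 FPKM in aberrant-marker, 267 to 270 FPKM in normal-marker and 329 to 332 FPKM in conditional control samples. It was 66.0 to 67.2 FPKM in germline knockout and 447 to 464 FPKM in wild-type samples. Against the conditional control, 4 were called higher at 4-fold in aberrant-marker macrophages and 1 lower. The lower one was Cd2 (45.7 against 330 FPKM), which made up most of the conditional control sum. All 6 B cell markers were at 0 in every group. In bulk RNA of this kind, fewer cells of a type and less RNA per cell cannot be told apart. The part that these transcripts' sources had in the levels below was not tested.

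All 9 factors were among the 11336 genes compared, those that reached 1 FPKM in 2 or more samples. By the 4-fold rule 0 of the 9 were called between aberrant-marker and conditional control macrophages, where 7.85% of all genes were called. In the same way 0 were called between normal-marker and conditional control (1.77% of genes), 0 between germline knockout and wild type (6.1%) and 0 between wild type and conditional control (2.11%). Between aberrant-marker and normal-marker macrophages of the conditional knockout 1 was called, Pparg, which was lower (7.28% of genes in either direction). The median difference of the 9 was -0.29, 0.28 and -0.34 log2 units for aberrant-marker against conditional control, normal-marker against conditional control and aberrant-marker against normal-marker, and 0.28 for germline knockout against wild type. The median over all genes lay within 0.02 of 0 in each of these comparisons.

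By the 2-fold rule, 1 factor was higher (Bhlhe40; background 8.6% of genes) and 2 were lower (Pparg and Cebpb; 9.13%) in aberrant-marker than in conditional control macrophages. The same 3 were named between aberrant-marker and normal-marker macrophages, with Bhlhe40 higher (9.27% of genes) and Pparg and Cebpb lower (8.19%). In germline knockout against wild type, 2 were higher, Bhlhe40 and Zeb2 (6.13% of genes), and 0 were lower (8.98%). No factor was called either way between normal-marker and conditional control macrophages, where 3.34% of genes were higher and 4.04% lower, or between wild type and conditional control, where 3.81% were higher and 4.15% lower.

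**Figure D1:**
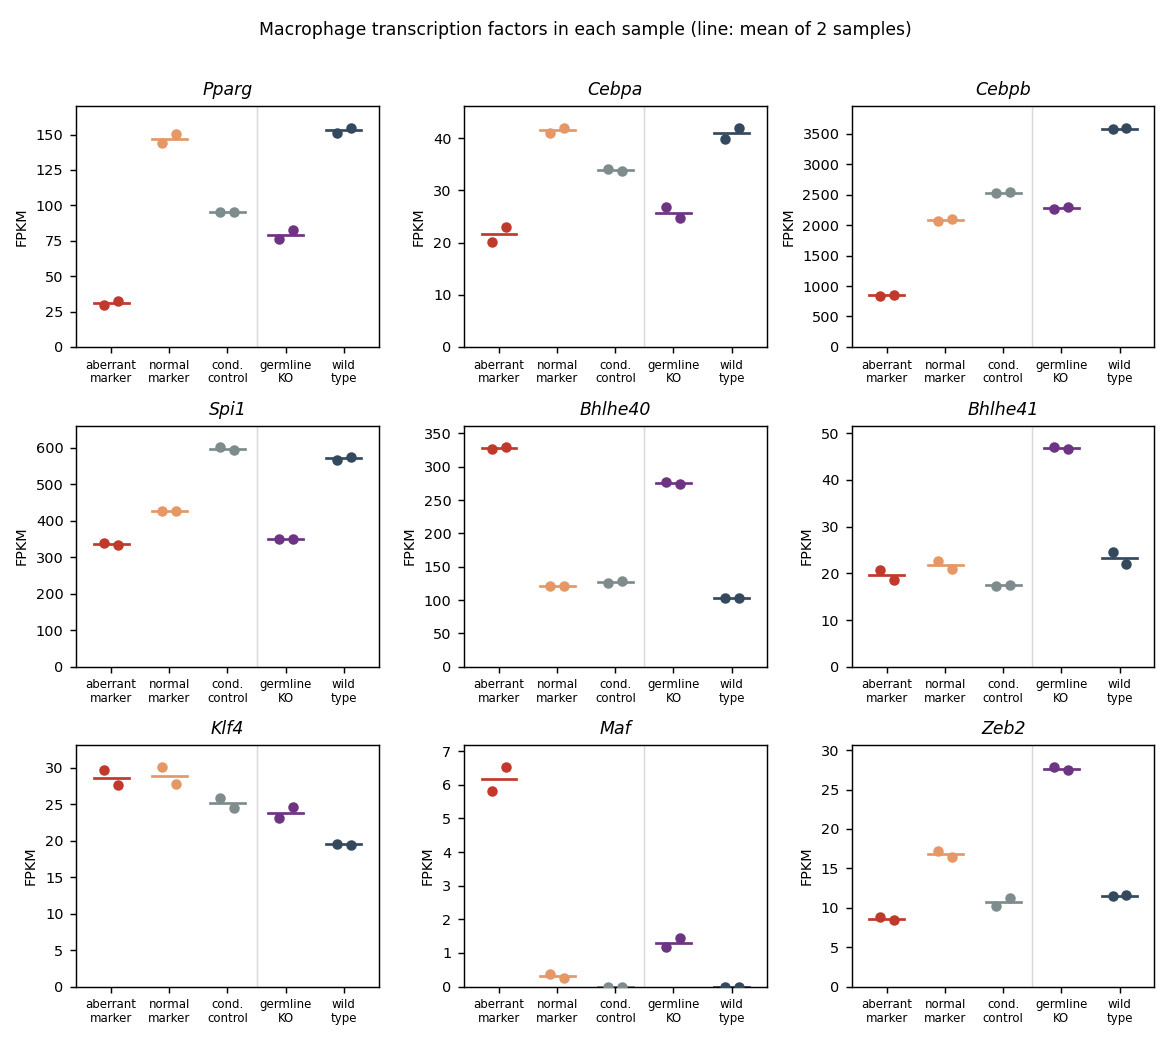
FPKM (vertical axis, linear, from 0, with its own scale for each factor) of the 9 factors in each of the 10 samples; points are samples, lines the mean of the 2 samples of a group, and the grey line separates the conditional line from the germline knockout and wild type. Pparg and Cebpb are lowest in the aberrant-marker samples, Bhlhe40 is high in the aberrant-marker and germline knockout samples, and Bhlhe41 and Zeb2 are highest in the germline knockout samples.

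Pparg varied most among the factors that were detected in every group. It was at 29.8 and 32.6 FPKM in the aberrant-marker samples, at 144 and 150 FPKM in the normal-marker samples and at 95.3 and 95.4 FPKM in the conditional control samples. It was at 76.1 and 82.4 FPKM in the germline knockout samples and at 151 and 155 FPKM in the wild-type samples. The aberrant-marker samples were the lowest of all 10, the germline knockout samples came next, and the normal-marker samples lay just under wild type; no groups overlapped. Between the lowest and the highest group the means were 4.91-fold apart.

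In aberrant-marker macrophages the Pparg mean was 3.06-fold lower than in the conditional control, a log2 difference of -1.58. Among the 4682 genes with at least 20 FPKM in either of these groups, 27.8% were at least as far apart in either direction, so the size of this change was not unusual in that library. Against the normal-marker macrophages of the same knockout, Pparg was 4.72-fold lower (log2 -2.20), a difference that 16.7% of genes at that level reached. In germline knockout macrophages it was 1.93-fold lower than in wild type (log2 -0.94), and 44.5% of genes were at least as far apart. The control library chosen affects the direction for the normal-marker cells: their Pparg was 1.54-fold higher than in the conditional control (log2 0.62), and 1.04-fold lower than in wild type (log2 -0.06).

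The table lists 1 Pparg transcript, NM_011146, so the use of other start sites cannot be read from it. The promoter windows of RefSeq (assembly GRCm38.p6, 250 bases before to 50 after a start) hold 3 for Pparg, and the one that begins this transcript is chr6:115421816-115422115 on the plus strand. It is printed because Pparg is the factor called at 4-fold, with matches of the C/EBP motif in capitals.

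Pparg: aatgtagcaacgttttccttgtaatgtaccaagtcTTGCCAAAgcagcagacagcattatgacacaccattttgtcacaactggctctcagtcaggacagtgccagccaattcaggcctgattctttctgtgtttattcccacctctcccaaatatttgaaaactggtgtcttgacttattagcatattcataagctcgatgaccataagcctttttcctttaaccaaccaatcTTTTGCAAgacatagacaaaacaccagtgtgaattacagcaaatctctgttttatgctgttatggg

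Windows were searched on both strands for 7 motifs: CACGTG (bound by Bhlhe40 and Bhlhe41), TGAGTCA (the core shared by AP-1 and by Bach with small Maf proteins), TTGCNNAA (C/EBP), GAGGAAG (PU.1), AGGTCA (a nuclear receptor half-site), CACCTG (ZEB) and CCACACCC (KLF). The Pparg window holds 2 matches of TTGCNNAA, at positions -215 and -16 with the start at 0, in a sequence of 40.3% GC with 2 CpG. Of all 32851 mouse windows, 10.8% hold a match of TTGCNNAA, and the median window has 52.7% GC and 7 CpG. The other Pparg windows lie upstream, and each holds 1 AGGTCA, which 16.3% of all windows hold. A match is a description of the sequence and does not show that a factor binds there.

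RXRα (Rxra), a form of the RXR with which PPARγ pairs, differed by more than Pparg itself. Its mean was 1.88 FPKM in aberrant-marker, 54.8 FPKM in normal-marker and 55.6 FPKM in conditional control samples, and it was 22.6 FPKM in germline knockout against 47.4 FPKM in wild type. The aberrant-marker level was far under all others, a log2 difference of -4.30 to the conditional control, and the germline knockout level was between. RXRβ (Rxrb), which can take the same place in the dimer, was at 30.7 FPKM in aberrant-marker against 44.9 FPKM in conditional control samples and at 36.0 FPKM in germline knockout against 25.9 FPKM in wild type; it was named after its values were seen.

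Of 15 compared genes of lipid handling that PPARγ is known to regulate, 7 were lower and 1 was higher at 4-fold in aberrant-marker than in conditional control macrophages, with a list median of -2.03 log2 units, while the median over all genes was 0. The largest differences were those of Cidec, a lipid droplet protein, with 0.266 against 299 FPKM, Olr1, a receptor for oxidized lipoprotein, with 2.38 against 58.4 FPKM, Angptl4, an inhibitor of lipoprotein lipase, with 8.18 against 82.4 FPKM, and Acaa2, an enzyme of fatty acid oxidation, with 19.3 against 140 FPKM. The gene that was higher was Fabp5, a fatty acid binding protein, with 1355 FPKM in aberrant-marker against 333 FPKM in conditional control samples. In germline knockout against wild type, 4 were lower (Cidec, Angptl4, Lpl and Pltp) and 1 was higher, again Fabp5, with 1526 against 335 FPKM; the list median was -1.22. Lpl, which encodes lipoprotein lipase, was at 89.5 FPKM in germline knockout against 559 FPKM in wild type, and at 85.1, 740 and 530 FPKM in aberrant-marker, normal-marker and conditional control macrophages. Against normal-marker macrophages, 6 of the 15 were lower in aberrant-marker macrophages and 0 higher, with a median of -1.76. Between normal-marker and conditional control macrophages 0 of the 15 were called at 4-fold and the list median was 0.20. Plin2, the lipid droplet coat protein with the highest mean of the list, was at 643 FPKM in aberrant-marker against 1022 FPKM in conditional control samples and at 956 against 1004 FPKM in germline knockout and wild type. Not every gene of the list followed Pparg, and Fabp4 and Cd36 were called at 4-fold in neither knockout against its control. Fabp4 was at 83.7 against 104 FPKM in aberrant-marker and conditional control, and at 181 against 145 FPKM in germline knockout and wild type. Cd36 was at 193 against 133 FPKM and at 502 against 188 FPKM, the latter called higher at 2-fold.

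Among signals upstream of PPARγ, Csf2ra, the α chain of the GM-CSF receptor and the highest of its list, was at 357 FPKM in aberrant-marker, 581 FPKM in normal-marker, 572 FPKM in conditional control, 414 FPKM in germline knockout and 584 FPKM in wild-type samples. Jak2, the kinase that carries the GM-CSF signal, was the only gene called at 4-fold, among 13 compared receptor and signalling genes, both in aberrant-marker against conditional control and in germline knockout against wild type; the list medians were -0.24 and -0.08. Jak2 was at 157 FPKM in aberrant-marker, 12.3 FPKM in normal-marker and 12.9 FPKM in conditional control samples, and at 45.9 FPKM in germline knockout against 7.39 FPKM in wild type. Csf2rb, the β chain of the GM-CSF receptor, was not called at 4-fold but went opposite ways. It was at 397 FPKM in aberrant-marker against 162 FPKM in conditional control samples (log2 1.28), called higher at 2-fold. In germline knockout it was at 88.7 FPKM against 233 FPKM in wild type (log2 -1.38), called lower at 2-fold. Csf2rb was named after its values were seen.

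Cebpb was the factor with the highest level in every group. It was at 838 and 852 FPKM in the aberrant-marker samples, 2069 and 2095 FPKM in the normal-marker samples and 2519 and 2540 FPKM in the conditional control samples. It was at 2260 and 2301 FPKM in the germline knockout samples, against 3570 and 3599 FPKM in the wild-type samples. The aberrant-marker samples were the lowest and the wild-type samples the highest, and no groups overlapped. These sums cover 3 RefSeq entries with identical values (843 FPKM each in the conditional control mean), and whether reads were divided among the entries or repeated was not tested. The differences between groups do not depend on that, but the level relative to other genes does.

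In aberrant-marker macrophages Cebpb was 2.99-fold lower than in the conditional control (log2 -1.58; 27.8% of genes at least as far) and 2.46-fold lower than in normal-marker macrophages (log2 -1.30; 35.4%). In germline knockout it was 1.57-fold lower than in wild type (log2 -0.65; 59.0%). Against wild type, which had 1.42-fold more Cebpb than the conditional control, the aberrant-marker level was 4.24-fold lower, and Pparg and Cebpb were then both called lower at 4-fold, a call that 3.91% of genes had. Cebpa was at 20.1 and 23.1 FPKM in aberrant-marker, 41.05 and 41.9 FPKM in normal-marker and 34.1 and 33.7 FPKM in conditional control samples. It was at 26.7 and 24.8 FPKM in germline knockout, against 39.9 and 42.01 FPKM in wild-type samples. The order of the groups was close to that of Pparg, with aberrant-marker and germline knockout lowest, but the whole range was 1.92-fold and normal-marker and wild-type samples overlapped. The Cebpa sum covers 5 entries, of which 4 have identical values. The other, NM_007678, was at 6.26 FPKM in normal-marker, 4.72 FPKM in conditional control and 1.69 FPKM in wild-type means. Unlike for Cebpb, the Cebpa differences and this overlap do depend on whether reads were divided or repeated.

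The ratio of Cebpb to Cebpa FPKM separated the conditional knockout from the rest. It was 41.7 and 37.0 in aberrant-marker, 50.4 and 50.02 in normal-marker and 74.0 and 75.3 in conditional control samples, and it was 84.6 and 92.8 in germline knockout against 89.5 and 85.7 in wild-type samples. Both knockout populations of the conditional line were under their control, whereas germline knockout and wild type overlapped. The ratio uses the summed entries of both genes, and its values with repeated entries counted once were not tested.

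The RefSeq window at the Cebpb start, chr2:167688665-167688964 on the plus strand, is printed for comparison with that of Pparg, the other factor that was lowest in aberrant-marker macrophages beyond 2-fold.

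Cebpb: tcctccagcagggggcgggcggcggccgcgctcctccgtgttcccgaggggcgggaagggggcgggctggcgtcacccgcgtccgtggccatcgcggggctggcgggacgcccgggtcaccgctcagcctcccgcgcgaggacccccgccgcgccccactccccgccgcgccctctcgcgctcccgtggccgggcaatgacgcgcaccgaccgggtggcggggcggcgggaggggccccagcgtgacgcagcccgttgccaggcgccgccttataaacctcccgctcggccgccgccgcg

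It holds none of the 7 motifs, and with 80.7% GC and 50 CpG it differs in base composition from the Pparg window. The Cebpa window holds none of them either.

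Spi1 was at 339 and 333 FPKM in aberrant-marker, 428 and 425 FPKM in normal-marker and 601 and 594 FPKM in conditional control samples. It was at 351.0 and 350.5 FPKM in germline knockout, against 566 and 575 FPKM in wild-type samples. All 6 samples from knockout mice were under all 4 control samples, and the controls of both lines were alike to within 1.05-fold. The differences were modest: 1.78-fold lower in aberrant-marker than in conditional control (log2 -0.83; 54.0% of genes at least as far), 1.40-fold lower in normal-marker (log2 -0.48; 50.1%) and 1.63-fold lower in germline knockout than in wild type (log2 -0.70; 56.5%). Spi1, Cebpb and Bhlhe40 (log2 -0.48, -0.28 and -0.06) were the factors that were lower in normal-marker than in conditional control macrophages. Its 2 listed transcripts took 47.3% and 52.7% of the level in aberrant-marker and 50.7% and 49.3% in conditional control samples, so neither dominated.

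Of 16 myeloid genes known to depend on PU.1 or C/EBP factors, 1 was higher and 1 lower at 4-fold in aberrant-marker than in conditional control macrophages, and the list median was -0.95. Itgam, the integrin chain CD11b, was at 26.2 against 2.42 FPKM, and Lyz2, lysozyme and the most abundant gene of the list, at 7766 against 34794 FPKM. In germline knockout against wild type Itgam was again higher, with 99.3 FPKM against a level listed at 0, and Fcgr1, the high-affinity receptor for IgG, was lower, with 3.87 against 38.6 FPKM; the median was -0.41. In normal-marker against conditional control 0 of 16 were called and the median was 0.03. Of 18 compared paralogues of the 9 factors, 1 was higher and 1 lower at 4-fold in aberrant-marker against conditional control (median 0.41), 0 in normal-marker against conditional control, and 2 were lower in germline knockout against wild type (median -0.02). These 2 were Cebpd and Klf10. Cebpd was lower in germline knockout, with 8.41 FPKM against 73.6 FPKM in wild type, and its level in aberrant-marker macrophages, 25.01 FPKM, was near the 30.9 FPKM of the conditional control. The C/EBP partner and inhibitor Ddit3, also called CHOP, went the other way in both knockouts, at 286 FPKM in aberrant-marker against 14.4 FPKM in conditional control samples and at 145 FPKM in germline knockout against 22.01 FPKM in wild type.

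Ddit3 and Rxra were the genes called in aberrant-marker against conditional control, and Ddit3 that in germline knockout against wild type, among 22 compared partners and coregulators. Junb, an AP-1 subunit and the most abundant of these, was at 510 FPKM in aberrant-marker against 151 FPKM in conditional control samples and at 359 FPKM in germline knockout against 150.2 FPKM in wild type.

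**Figure D2:**
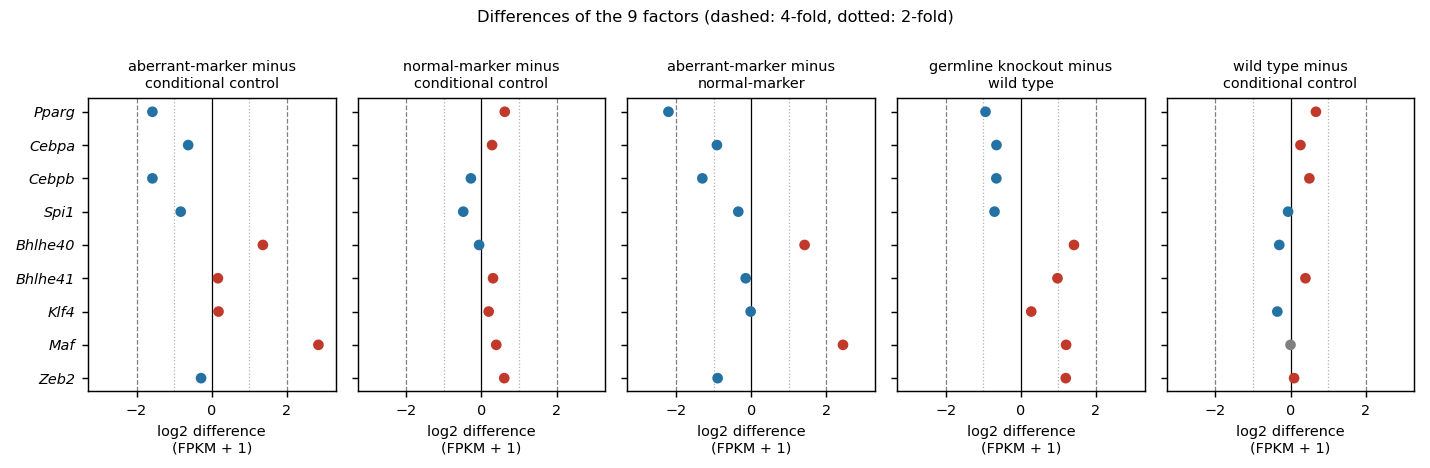
Difference in mean log2(FPKM + 1) (horizontal axis) of the 9 factors in 5 comparisons; points are differences of group means, red where positive, blue where negative and grey at 0, the short bars behind them, mostly hidden, span every choice of 1 sample per group, and lines mark 2-fold and 4-fold. Pparg, Cebpa, Cebpb and Spi1 lie left of 0 in aberrant-marker against conditional control and in germline knockout against wild type, and Bhlhe40, Bhlhe41, Klf4 and Maf lie right of 0 in both.

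Bhlhe40 was at 326 and 329 FPKM in the aberrant-marker samples, 122 and 121 FPKM in the normal-marker samples and 125 and 128 FPKM in the conditional control samples. It was at 278 and 274 FPKM in the germline knockout samples, against 103 and 103 FPKM in the wild-type samples. The aberrant-marker and germline knockout samples stood together above the other 6, and the normal-marker samples were just under their control. Bhlhe40 was 2.58-fold higher in aberrant-marker than in conditional control (log2 1.36; 33.2% of genes at least as far), 2.70-fold higher than in normal-marker (log2 1.42; 31.7%) and 2.68-fold higher in germline knockout than in wild type (log2 1.42; 28.6%). It was the factor called at 2-fold in both knockouts against their controls. These 2 comparisons share no samples.

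Its paralogue Bhlhe41 followed another pattern. It was at 20.7 and 18.6 FPKM in aberrant-marker, 22.6 and 21.0 FPKM in normal-marker and 17.2 and 17.6 FPKM in conditional control samples. It was at 46.9 and 46.5 FPKM in germline knockout, against 24.5 and 22.002 FPKM in wild-type samples. Only the germline knockout samples stood apart, 2.01-fold above wild type in the mean, which on the log2(FPKM + 1) scale was 0.98 and so just under the 2-fold threshold; without wild-type sample 4 it was 1.05, and Bhlhe41 was then called higher at 2-fold. In aberrant-marker macrophages it was 1.13-fold above the conditional control and 1.18-fold below wild type, so its direction there depended on the control used. Normal-marker and wild-type samples overlapped.

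The ratio of Bhlhe40 to Bhlhe41 FPKM was accordingly high in 1 library. It was 15.8 and 17.7 in aberrant-marker, 5.37 and 5.78 in normal-marker and 7.27 and 7.30 in conditional control samples. It was 5.92 and 5.90 in germline knockout against 4.19 and 4.69 in wild-type samples. In germline knockout both paralogues were higher than in wild type, whereas in aberrant-marker macrophages Bhlhe40 was higher with little change of Bhlhe41.

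The Bhlhe41 window, chr6:145865371-145865670 on the minus strand, is shown because these factors bind CACGTG; capitals mark matches of CACGTG and, on the opposite strand, of CACCTG.

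Bhlhe41: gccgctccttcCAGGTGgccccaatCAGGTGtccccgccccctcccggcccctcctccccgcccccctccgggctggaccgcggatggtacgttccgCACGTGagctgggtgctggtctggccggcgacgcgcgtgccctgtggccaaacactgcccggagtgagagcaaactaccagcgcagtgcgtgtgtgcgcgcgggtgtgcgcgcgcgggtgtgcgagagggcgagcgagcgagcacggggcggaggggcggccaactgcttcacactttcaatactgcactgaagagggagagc

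It holds CACGTG at position -153, and CACCTG, read as CAGGTG, at positions -239 and -225. Of all windows 7.15% hold CACGTG and 20.2% hold CACCTG, and the Klf4 window also holds 1 CACGTG, at position -182. The window has 70.7% GC and 32 CpG. Bhlhe41 has 2 listed transcripts, and NM_024469 took 70.1% to 74.5% of the level in every group, so the higher level in germline knockout was shared by both.

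Zeb2 was at 8.81 and 8.40 FPKM in aberrant-marker, 17.2 and 16.5 FPKM in normal-marker and 10.2 and 11.2 FPKM in conditional control samples. It was at 27.8 and 27.5 FPKM in germline knockout, against 11.4 and 11.6 FPKM in wild-type samples. The germline knockout samples were highest, the normal-marker samples next and the aberrant-marker samples lowest, while both controls were within 1.07-fold of each other. Zeb2 was 2.41-fold higher in germline knockout than in wild type (log2 1.20; 35.2% of genes at least as far), 1.57-fold higher in normal-marker than in conditional control (log2 0.61; 40.4%) and 1.24-fold lower in aberrant-marker than in conditional control (log2 -0.29; 82.4%). In both comparisons with the conditional control, Zeb2 itself was below the 20 FPKM that the genes counted there reached. The 2-fold call in germline knockout was lost with a pseudocount of 5 (log2 0.98) and with the highest transcript in place of the sum (16.6 FPKM, under the 20 FPKM floor). Within the conditional knockout it was 1.96-fold lower in aberrant-marker than in normal-marker macrophages (log2 -0.89).

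Zeb2 also differed in its transcripts. NM_015753 was at 0.388 and 0.372 FPKM in aberrant-marker, 5.42 and 5.17 FPKM in normal-marker and 2.14 and 1.66 FPKM in conditional control samples, and it was at 5.33 and 6.29 FPKM in germline knockout against 1.43 and 1.55 FPKM in wild type. Its share of the Zeb2 level was 4.41% in aberrant-marker, 31.5% in normal-marker, 17.7% in conditional control, 21.0% in germline knockout and 12.96% in wild-type macrophages. The other 2 entries, XM_006498043 and NM_001289521, were at 5.69 and 2.54 FPKM in aberrant-marker against 5.87 and 2.94 FPKM in conditional control means. The lower Zeb2 sum in aberrant-marker macrophages was thus mostly that of NM_015753. The shares are estimates for transcripts that overlap, and entries also differed between the samples of a group, as XM_006498043 did in the conditional control (4.77 and 6.97 FPKM).

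**Figure D3:**
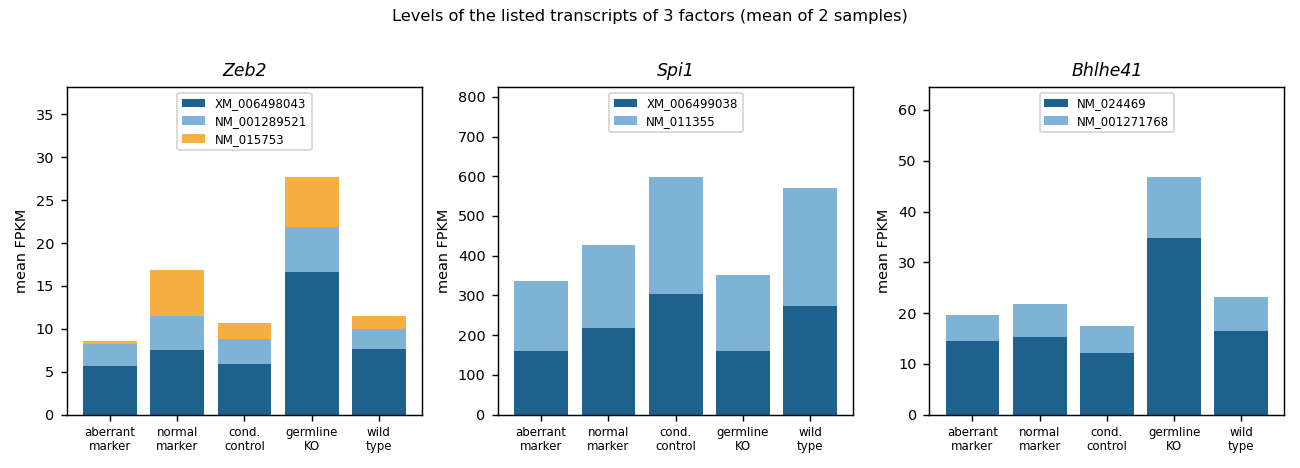
Mean FPKM (vertical axis, from 0) of the listed transcripts of Zeb2, Spi1 and Bhlhe41 in the 5 groups, stacked to the level of the gene. NM_015753 of Zeb2 (orange) is the thinnest layer in aberrant-marker macrophages, 0.380 FPKM, and 5.30 FPKM in normal-marker macrophages, whereas the shares of the Spi1 and Bhlhe41 transcripts are alike in all groups.

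The Zeb2 window chr2:45110228-45110527, on the minus strand, has its start 11 bases from that of NM_001289521 and is shown because it was the only 1 of the 11 windows of these factors to hold the TGAGTCA core that Bach proteins bind with small Maf proteins. Capitals mark GAGGAAG and both matches of TGAGTCA.

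Zeb2: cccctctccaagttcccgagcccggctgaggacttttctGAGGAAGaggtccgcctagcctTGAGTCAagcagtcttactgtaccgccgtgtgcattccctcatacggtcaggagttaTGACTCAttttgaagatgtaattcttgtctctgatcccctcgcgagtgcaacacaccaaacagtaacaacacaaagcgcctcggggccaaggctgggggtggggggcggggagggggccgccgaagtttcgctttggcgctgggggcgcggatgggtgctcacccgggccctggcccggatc

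TGAGTCA stands at position -189 and, on the opposite strand as TGACTCA, at position -132, and GAGGAAG at position -211. Of all windows 5.20% hold TGAGTCA and 13.6% hold GAGGAAG; no matches overlapped in this window. The windows at the start of NM_015753 hold GAGGAAG and no TGAGTCA. Spi1, Bhlhe40 and Maf are not in the RefSeq table of windows.

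Maf was detected at low levels and in 3 groups only. It was at 5.81 and 6.52 FPKM in aberrant-marker samples, about 276 and 340 reads, and at 0.375 and 0.254 FPKM in normal-marker samples, about 22.5 and 15.3 reads, and was listed at less than 1 read in both conditional control samples. It was at 1.17 and 1.44 FPKM in germline knockout samples, about 63.2 and 72.8 reads, and again listed at less than 1 read in both wild-type samples. Every sample from knockout mice thus held Maf reads and every control sample held none. No fold is given against the controls; aberrant-marker macrophages had 19.6-fold more Maf than normal-marker macrophages. The log2(FPKM + 1) differences were 2.84 for aberrant-marker and 0.39 for normal-marker against the conditional control and 1.21 for germline knockout against wild type. None reached the 20 FPKM needed for a call.

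Of 8 compared genes linked to Maf factors, the 3 C1q chains were called higher in both knockouts; the list median was -0.89 in aberrant-marker against conditional control and 1.17 in germline knockout against wild type. C1qa was at 193 FPKM in aberrant-marker samples and listed at 0 in normal-marker and conditional control samples, and was at 33.6 FPKM in germline knockout samples and listed at 0 in wild type. C1qb was at 375, 21.3 and 1.01 FPKM in the aberrant-marker, normal-marker and conditional control groups, and was the 1 gene of the list called in normal-marker macrophages. Mertk and Mrc1, an efferocytosis receptor and the mannose receptor, were lower in aberrant-marker macrophages, with Mertk at 8.72 against 73.0 FPKM and Mrc1 at 36.3 against 167 FPKM in the conditional control. Axl, a receptor related to Mertk and the highest of the list, was lower in germline knockout, with 50.8 against 331 FPKM in wild type. The C1q chains are also on the list of monocyte and interstitial macrophage markers, whose summed level was 1016 to 1018 FPKM in aberrant-marker, 224 to 226 FPKM in normal-marker, 125 to 126 FPKM in conditional control, 707 to 714 FPKM in germline knockout and 92.4 to 93.9 FPKM in wild-type samples. On that list Ly6c2 and Vcan were at 0 in every group. The C1q chains made up most of the sum in aberrant-marker samples. Fn1 made up most of it in normal-marker (183 FPKM), conditional control (111 FPKM) and wild-type samples (93.1 FPKM), and was at 107 FPKM in aberrant-marker and 322 FPKM in germline knockout samples.

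Klf4 varied least, 1.48-fold over the 5 groups. It was at 29.7 and 27.6 FPKM in aberrant-marker, 30.05 and 27.7 FPKM in normal-marker and 25.8 and 24.4 FPKM in conditional control samples. It was at 23.1 and 24.6 FPKM in germline knockout, against 19.5 and 19.5 FPKM in wild-type samples. Aberrant-marker and normal-marker samples overlapped, as did conditional control and germline knockout samples, and wild type was lowest. Of the Krüppel-like paralogues, Klf6 was higher in aberrant-marker macrophages, with 308 FPKM against 57.2 FPKM in the conditional control, while it was at 57.1 FPKM in germline knockout against 88.5 FPKM in wild type. Klf10, a TGF-β response gene, was lower in both knockouts, with 27.0 against 131 FPKM and with 25.5 against 131 FPKM.

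**Figure D4:**
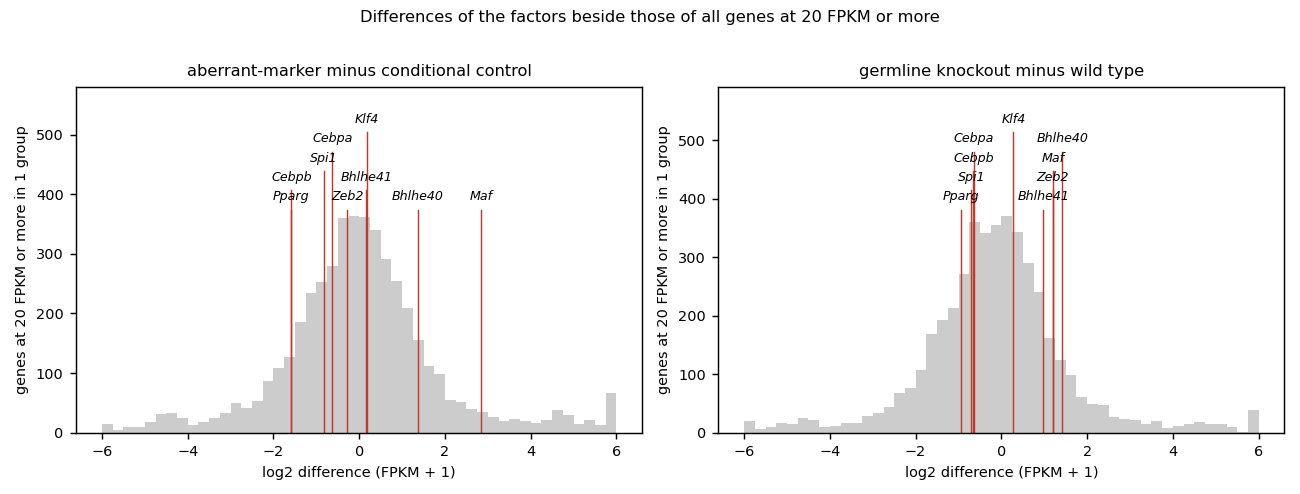
Number of genes (vertical axis) by log2 difference (horizontal axis, bins of 0.25, with values beyond 6 in the outermost bins) among genes at 20 FPKM or more in at least 1 of the 2 groups compared, for aberrant-marker against conditional control and germline knockout against wild type; red lines mark the 9 factors, of which Maf, in both panels, and Zeb2 and Bhlhe41, in the left panel, are below 20 FPKM in both groups. Most factors lie in the body of the distribution: Pparg at -1.58 and -0.94 and Bhlhe40 at 1.36 and 1.42 are matched or passed by 27.8%, 44.5%, 33.2% and 28.6% of the genes.

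Of 44 compared other transcription factors of macrophages and myeloid cells, 11 were higher and 3 lower at 4-fold in aberrant-marker than in conditional control macrophages, against 7.85% of all genes called in either direction, and 30 were not called. The list median was 0.36. The largest differences were those of Zbtb46 (34.2 against 0.0438 FPKM), Relb (288 against 10.7 FPKM), Irf4 (61.1 against 1.58 FPKM) and Batf3 (148 against 8.06 FPKM), all known for roles in dendritic cells, and Id2, the most abundant of the list and likewise expressed in dendritic cells, was at 730 against 173 FPKM. Zbtb46 and Batf3 are also among the 12 dendritic cell markers, of which 9 were called higher in this comparison and 2 in germline knockout against wild type. The 3 lower ones, named after their values were seen, were Id1 (1.44 against 25.4 FPKM), Myc (7.30 against 52.9 FPKM), which drives proliferation, and Runx1 (8.81 against 54.0 FPKM). Against normal-marker macrophages, 10 were higher and 2 lower in aberrant-marker macrophages. In germline knockout against wild type 2 of 44 were higher and 0 lower, and the median was -0.06. Ets2 was at 25.7 FPKM in germline knockout and listed at 0 in wild type, and Atf3, a stress-induced repressor, was at 110 against 11.9 FPKM. In normal-marker macrophages 1 was higher than in the conditional control, Batf3 with 45.9 against 8.06 FPKM, and 1 lower, Nfil3 with 3.03 against 34.7 FPKM.

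**Figure D5:**
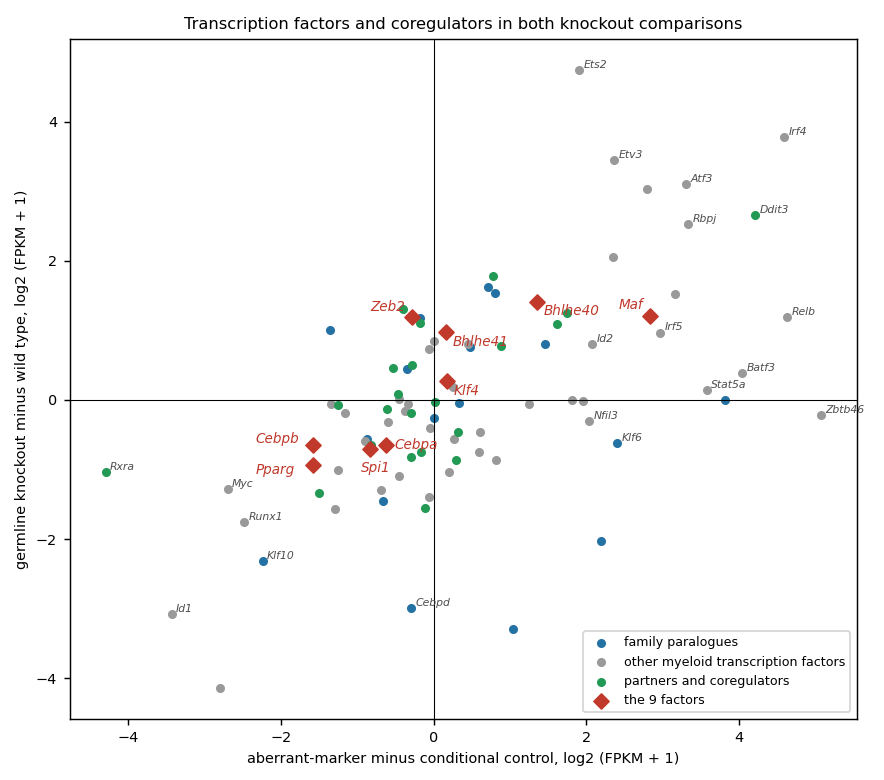
Log2 difference in aberrant-marker against conditional control (horizontal axis) and in germline knockout against wild type (vertical axis) for the 9 factors (red diamonds) and for compared genes of 3 lists (circles, 1 gene not shown); circles with a name were called at 4-fold in at least 1 of the 2 comparisons. The diamonds lie between -1.58 and 2.84 horizontally and between -0.94 and 1.42 vertically, and Zbtb46 at 5.08, Relb at 4.63 and Rxra at -4.30 lie farther out along the horizontal axis.

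For each factor, the 3 genes (2 for Bhlhe40) whose profile over the 5 groups was nearest were found among 5311 genes with 20 FPKM or more in at least 1 group, by the root mean square distance between centred log2(FPKM + 1) profiles. With 5 groups, near profiles are common, and nothing on shared function follows. Nearest to Pparg were Rbfa (0.122), Lyn and Eci2, and Lyn was at 23.7, 96.6 and 83.1 FPKM in the aberrant-marker, normal-marker and conditional control groups and at 57.1 against 122 FPKM in germline knockout and wild type. Nearest to Cebpa were Ywhab (0.0394), Dhrs3 and Tex261, to Cebpb Rgs19 (0.0882), Tuba4a and Mgst1, and to Spi1 Mrpl12 (0.0451), Arhgap30 and Serinc3. Nearest to Bhlhe40 were Jtb (0.108) and Tmem128. Nearest to Bhlhe41 were Cox7a2 (0.0672), Batf and Ctss, and Ctss, a lysosomal protease, was at 8189 FPKM in germline knockout against 3700 FPKM in wild type and at 3710, 3915 and 3831 FPKM in the aberrant-marker, normal-marker and conditional control groups. Zeb2 was nearest to Lamp2 (0.0594), Cd200r1 and Cd68, of which Lamp2 and Cd68 encode lysosomal membrane proteins, and Cd68 was at 794, 1726 and 1035 FPKM in those 3 groups and at 2164 against 1124 FPKM in germline knockout and wild type. Klf4 was nearest to Tmco3 (0.0651), Arf6 and Coq5. Maf was nearest to Cdkn1a (0.155), a cell cycle inhibitor, Pkib and Nampt, and Cdkn1a was at 749, 134 and 90.2 FPKM in the 3 groups of the conditional line and at 249 against 79.9 FPKM in germline knockout and wild type.

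The 2 control libraries, which differ in line and in the sex that their transcripts show, differed for these factors by less than 2-fold. In wild type Pparg was 1.61-fold (log2 0.68) and Cebpb 1.42-fold (log2 0.50) higher than in the conditional control, and Klf4 was 1.29-fold (log2 -0.35) and Bhlhe40 1.23-fold (log2 -0.30) lower. For Bhlhe41 the gap was 0.40 log2 units. Those gaps are larger than the differences of normal-marker macrophages from the conditional control for the same factors, so these 5 differences cannot be told apart from the spread between control libraries. For Cebpa the gap of 0.26 was close to its difference of 0.28 between normal-marker and conditional control macrophages. Spi1, in contrast, differed by -0.06 between the controls and by -0.48 between normal-marker and conditional control, and Zeb2 by 0.10 and 0.61. Genes of the dissociation response, which can be induced while cells are isolated, summed to 1466 to 1469 FPKM in aberrant-marker, 416.3 to 416.4 FPKM in normal-marker, 514 to 517 FPKM in conditional control, 812 to 823 FPKM in germline knockout and 715 to 725 FPKM in wild-type samples, and their part in the factors' levels was not tested.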

How the data were processed

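RNA-seq of 10 samples of mouse alveolar macrophages was used, 2 in each of 5 groups. Per the labels' protocols, each sample gave 100 pg of RNA, which was amplified by 18 PCR cycles (SMARTer kit), sheared and made into libraries without molecular identifiers or strand information; reads of overlapping antisense genes are therefore mixed. The authors deposited 1 table of FPKM over 45913 RefSeq transcripts; the unit is not named in it and was read from the values. Bowtie 1.1.2 and eXpress 1.5.1 are named in the submitters' processing notes, with no role. The genome build is not given in the sources used here. All 10 columns matched a sample title.

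The FPKM of all transcripts with the same Entrez number were added (26173 genes), and the 11336 genes that reached 1 FPKM in 2 or more columns were compared on log2(FPKM + 1), with no further scaling. Depth was estimated from the lowest values and GENCODE M21 lengths, so read numbers are approximate. The planned limma test was replaced, as its design provided, by a rule of size, because the columns of a group proved to agree nearly within sampling noise: the median of the squared count difference over the sum was 0.600 to 1.05 within groups and 70.8 to 101 across groups, where repeat reads of 1 library give 0.455. The 4-fold rule was tested on simulated reads that held sampling noise only, without variation between mice or libraries. The 2-fold threshold was not simulated.

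The 9 factors, the gene lists and the tests were chosen with earlier results of these data known. Named were all 9 factors, up to 4 called genes per list and comparison by size, the most abundant gene of each list, and the 3 genes nearest in profile; other genes named were chosen after their values were seen. Of 239 list genes 235 were found, and some genes that the rule names are left out of the text. Promoter sequences are RefSeq's, on GRCm38.p6. Alternatives covered the pseudocount, the 20 FPKM floor, the threshold, scaling, the highest transcript in place of the sum, the other control and leaving out each sample. Python 3.11.15, pandas 2.3.3, numpy 2.4.6, scipy 1.17.1 and matplotlib 3.10.9 were used.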

Additional observations from a re-analysis of the deposited data

Results flagged for a closer look

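For 4 factors, every sample of a conditional knockout population lay on one side of its control and every germline knockout sample on the other side of wild type. Each of these contrasts rests on 1 library per group, and the difference between the effects was not tested. Zeb2 was lower in aberrant-marker than in conditional control macrophages (log2 -0.29) and higher in germline knockout than in wild type (1.20), a gap of -1.48 log2 units. Pparg was higher in normal-marker than in conditional control macrophages (0.62) and lower in germline knockout than in wild type (-0.94), a gap of 1.56. Cebpa did likewise, with 0.28 and -0.65 and a gap of 0.93. Bhlhe40 was slightly lower in normal-marker than in conditional control macrophages (-0.06) and higher in germline knockout than in wild type (1.42), a gap of -1.48. For Pparg and Bhlhe40 the normal-marker effect changed sign when wild type took the place of the conditional control. For Cebpa it was then 0.02 log2 units, and the samples overlapped.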

How the results depend on the processing

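Leaving out any 1 of the 10 samples changed no count of factors called at 4-fold. No paired analysis was made, because each group counted as 1 library and the sample labels name no mouse. Between aberrant-marker and conditional control macrophages, the count higher at 4-fold was 1 in place of 0 with a floor of 5 FPKM or with no floor (Maf) and 1 with a threshold of 1 log2 unit (Bhlhe40). The count lower there was 2 in place of 0 with a threshold of 1 log2 unit and 2 with wild type as the control, Pparg and Cebpb each time. Between aberrant-marker and normal-marker macrophages, the count lower was 0 in place of 1 with a pseudocount of 5 and 2 with a threshold of 1 log2 unit, and the count higher was 1 with a floor of 5 FPKM or with no floor (Maf) and 1 with a threshold of 1 log2 unit (Bhlhe40). Between germline knockout and wild type, the count higher was 2 in place of 0 with a threshold of 1 log2 unit (Bhlhe40 and Zeb2). The remaining 4-fold counts were as reported under every alternative run. The same alternatives were applied to the 2-fold counts after the data had been seen. Between aberrant-marker and conditional control, and likewise between aberrant-marker and normal-marker macrophages, the count higher was 2 in place of 1 with a floor of 5 FPKM or with no floor (Maf added). Between germline knockout and wild type, the count higher was 1 in place of 2 with a pseudocount of 5 or with the highest transcript (Zeb2 lost), 3 with no floor (Maf added) and 3 without wild-type sample 4 (Bhlhe41 added); leaving out any other sample changed no 2-fold count. Of the factors' own differences, 4 of 18 changed sign with wild type as the control (Bhlhe41 in aberrant-marker and Pparg, Bhlhe40 and Bhlhe41 in normal-marker macrophages), 1 of 45 with the highest transcript in place of the sum (Spi1 between the controls) and 1 of 45 with scaling by the median ratio (Klf4 between aberrant-marker and normal-marker macrophages, which also changed sign without aberrant-marker sample 8 or normal-marker sample 2). The log2 difference of Maf depends on the pseudocount. Depth limits Maf most: 1 read was worth about 0.0167 to 0.0211 FPKM.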
